A study of Mus musculus with 16 samples.

Results

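The genes described here are 9 enzymes of phase I and phase II metabolism: the flavin-containing monooxygenases Fmo1, Fmo2, Fmo4 and Fmo5, the cytosolic sulfotransferases Sult1a1, Sult1c2 and Sult1d1, and the epoxide hydrolases Ephx1 and Ephx2. They were chosen by gene symbol, and 9 of 9 were found in both deposited expression tables, which list 30277 genes each. Kidney RNA was sequenced from mice of the inbred strain 129S1/SvlmJ onto which a recessive Klotho mutation had been backcrossed, so every group shares that background. The groups were male Kl/Kl (5 libraries, 44 to 47 days of age), male control (3 libraries, 45 to 46 days), female Kl/Kl (4 libraries, 45 to 54 days) and female control (4 libraries, 45 to 49 days). Kl/Kl mice are homozygous for the mutation in every tissue and had renal failure. Control males were heterozygous (+/Kl) and control females were wild type (+/+), and both had healthy kidneys, so control genotype and sex cannot be told apart. A table was made for each sex, and Kl/Kl was compared with control within a table. Whether each library came from its own animal is not stated in the labels, and p-values here describe the scatter among these libraries.

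Flavin-containing monooxygenases sit in the endoplasmic reticulum and use FAD, NADPH and molecular oxygen to oxidise nitrogen and sulfur atoms of small molecules. Sulfotransferases of the SULT1 family transfer a sulfate group from the donor PAPS to phenols, catecholamines and related compounds, which makes them more water-soluble for excretion. Epoxide hydrolases add water to reactive epoxides and leave diols. All 3 families are known from liver and kidney, and in the mouse kidney several members are made in the proximal tubule.

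Levels are given in TPM as deposited. The columns of a table have one total (285327 TPM in the male table, 265288 TPM in the female table), and the values behave as reads divided by the genomic span of a gene rather than by its transcript, so a TPM value can be compared between libraries of a table but not between genes of different span. The low values put the libraries at an estimated 21.5 to 31.7 M reads. Results are given with and without 2 libraries that stood apart from the rest. In female Kl/Kl replicate 3 the median Spearman correlation with the other libraries was 0.504, the summed level of 15 proximal tubule markers was 18.6 TPM against 511 to 1440 TPM in the other 15 libraries, and heart muscle, airway and adipocyte markers summed to 1864, 1066 and 1184 TPM. Its kidney label therefore goes against its markers. In male control replicate 3 mitochondrial genes took 54.3% of the total, against 35.4 to 44.8% in the other males, and its median correlation was 0.858. Kl itself averaged 0.112 TPM in Kl/Kl males and 10.2 TPM in control males (exact permutation p = 0.0357, two-sided, the smallest this design allows), and 0.239 TPM in Kl/Kl females against 15.7 TPM in control females (exact permutation p = 0.0286, likewise the smallest).

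In males, 3 of the 9 enzymes passed an adjusted p of 0.05 with every library in the fit: Sult1d1 and Ephx1 rose in Kl/Kl kidneys and Fmo5 fell to 8.34% of its control mean. Of all 8439 genes tested in males 5.92% passed, 3.74% as higher and 2.18% as lower (316 and 184 genes, or 564 and 593 genes after median-of-ratios scaling). No Kl/Kl library overlapped any control library for 5 of the 9, with Fmo2, Sult1a1, Sult1d1 and Ephx1 higher and Fmo5 lower, against 23.5% of all genes, 19.1% higher and 4.4% lower. The median log2 change over all male genes was 0.19, and it was 0.01 without control replicate 3 and 0.05 with median-of-ratios scaling. Relative to that 0.19, the log2 changes were 0.96 for Sult1d1, 0.40 for Ephx1 and -2.19 for Fmo5. Without control replicate 3, 3 of the 9 passed again but not the same 3, with Ephx1 higher and Fmo1 and Fmo5 lower, against 10.5% of all genes (3.16% higher and 7.36% lower), and 8 of the 9 did not overlap, 4 in each direction, against 42.9% (20.2% higher and 22.7% lower). Each of the 9 male changes kept its sign under every alternative run.

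**Figure D1:**
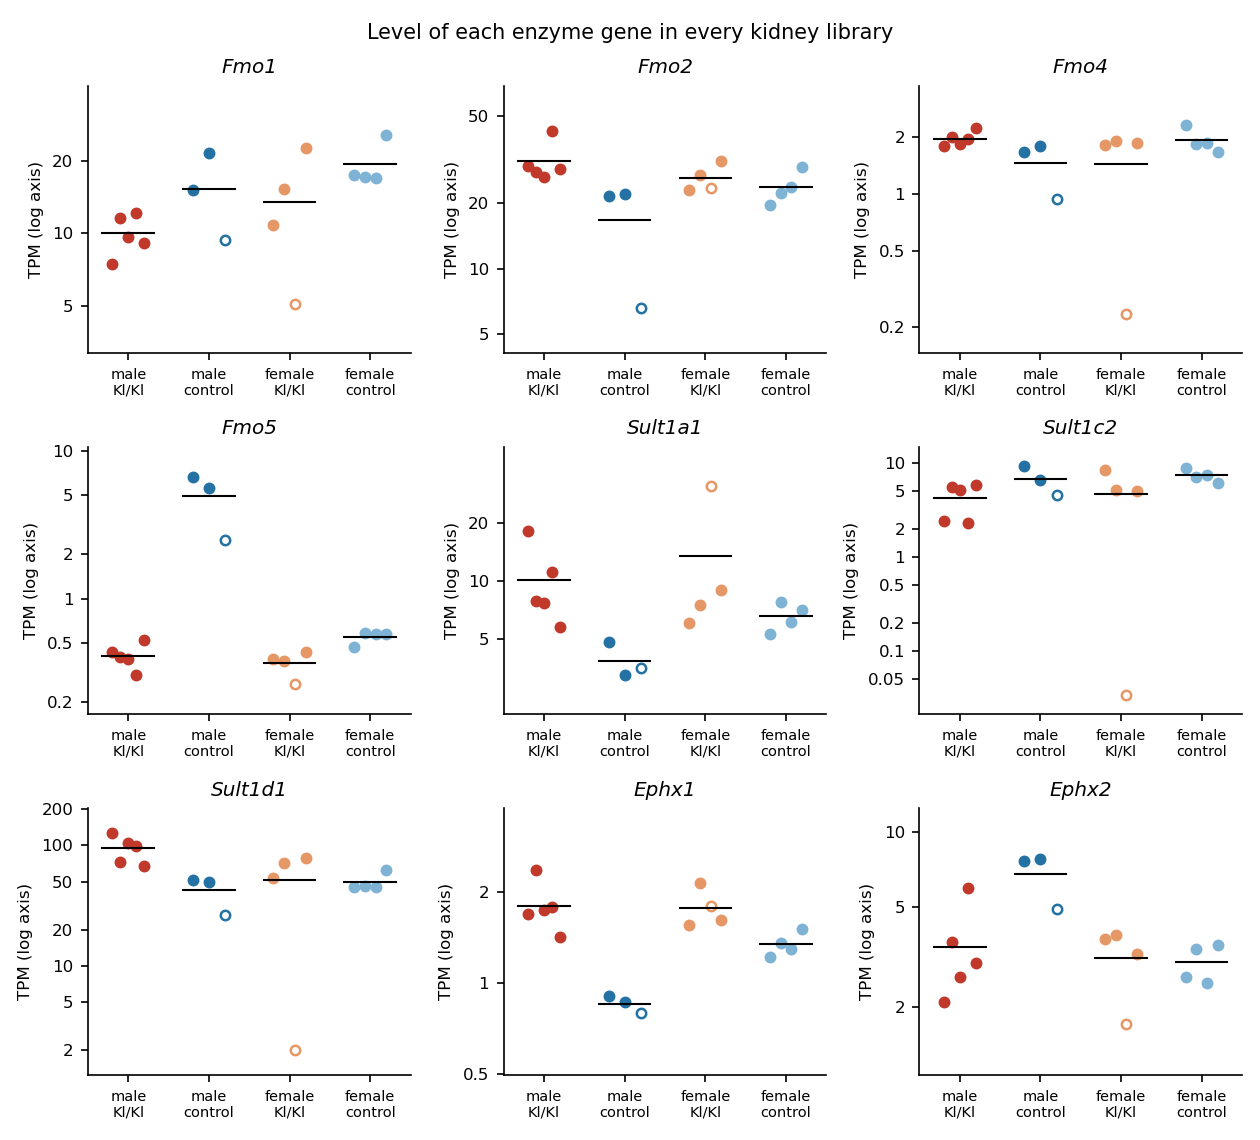
TPM (log axis) of the 9 enzyme genes in each of the 16 kidney libraries, by group. Points are libraries, the black line is the group mean, and open points mark the third replicate of female Kl/Kl and of male control. Fmo5 lies between 2.51 and 6.65 TPM in control males and between 0.265 and 0.589 TPM in the 13 other libraries.

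Fmo5 gave the largest difference of the 9. It encodes a monooxygenase that, unlike its relatives, acts mainly as a Baeyer-Villiger oxidase of ketones and does little to the usual amine and sulfide substrates. The gene lies on chromosome 3 (97536120 to 97562599, plus strand, mm39). Its levels were 0.434, 0.404, 0.392, 0.303 and 0.525 TPM in the 5 Kl/Kl males, against 6.65, 5.65 and 2.51 TPM in the 3 control males. Every Kl/Kl male was below every control male, with an estimated 184 to 423 reads per Kl/Kl library and 2379 to 4597 per control library. The means were 0.412 ± 0.0801 TPM in Kl/Kl males (SD, n = 5) and 4.94 ± 2.16 TPM in control males (SD, n = 3). The log2 change was -2.00 ± 0.22 (SE) on the log2(TPM + 1) scale, with an adjusted p of 0.000389 by limma with Benjamini-Hochberg adjustment, as for all adjusted p-values here. That scale understates the change of a gene under 1 TPM in one group. Without control replicate 3 the change was -2.34 ± 0.09 (adjusted p = 4.30e-06 by limma), and the call was kept when any 1 of the 8 male libraries was left out (highest adjusted p 0.00276). In bulk RNA, fewer cells of a type and less RNA per cell cannot be told apart.

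The promoter of Fmo5 is shown in part because this gene carries the clearest change. The 250 bases before the annotated start of each gene were read from RefSeq (GRCm38.p6), which holds a promoter for 7 of the 9 enzymes, and were searched on both strands for 7 motifs: the androgen receptor element, the NRF2 element TGACNNNGC, the AHR core GCGTG, the STAT5 element TTCNNNGAA, an HNF1 motif GTTAAT, the CCAAT box CCAAT and the TATA box TATAAA. Among 32851 mouse promoters of the same length, 0.0304% held the androgen receptor element, 10.2% the NRF2 element, 28.2% the AHR core, 7.02% the STAT5 element, 6.43% the HNF1 motif, 33.9% the CCAAT box and 12.4% the TATA box. The first 61 bases of the Fmo5 window (chr3:97628769-97628829, plus strand, 5′ to 3′) hold its only matches, a reverse-strand CCAAT box 211 bases and a reverse-strand TATA box 195 bases before the start, in capitals:
Fmo5: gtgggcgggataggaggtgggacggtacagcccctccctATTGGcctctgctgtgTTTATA
The matches do not overlap each other. A match describes letters only, and the absence of one says nothing about the factor.

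Fmo1, Fmo2 and Fmo4 lie next to each other on chromosome 1 on the minus strand, with Fmo4 at 162620757 to 162641542, Fmo1 at 162657130 to 162694180 and Fmo2 at 162701886 to 162726296 (mm39). Fmo1 and Fmo2 are 7.705 kb apart, and their male changes had opposite signs. Fmo1 is the main flavin monooxygenase of the adult mouse kidney. It had 7.47, 11.6, 9.62, 12.2 and 9.16 TPM in Kl/Kl males, against 15.2, 21.6 and 9.36 TPM in control males. Control replicate 3 was inside the Kl/Kl range, and the other controls were above it. With every library the change was -0.52 ± 0.26 (SE) and did not pass (adjusted p = 0.223 by limma). Without control replicate 3 Fmo1 fell in Kl/Kl males, by -0.82 ± 0.21 (adjusted p = 0.0441 by limma), to 54.4% of the control mean. It passed in 4 of 22 alternatives in all (adjusted p from 0.00284 to 0.525 by limma).

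Fmo2, which in many mammals is the main form of the lung, had 29.4, 27.6, 26.3, 42.9 and 28.7 TPM in Kl/Kl males, against 21.6, 22.0 and 6.58 TPM in control males. Each Kl/Kl male was above each control, yet the size of the difference rested on control replicate 3. The log2 change was 1.00 ± 0.35 (SE) with every library (adjusted p = 0.107 by limma) and 0.47 ± 0.19 without that library (adjusted p = 0.141 by limma). Fmo4, whose substrates are less well known, had 1.79, 2.01, 1.84, 1.95 and 2.25 TPM in Kl/Kl males, against 1.67, 1.80 and 0.943 TPM in control males. The groups overlapped, and the change of 0.28 ± 0.15 (SE) did not pass (adjusted p = 0.247 by limma), nor did that of 0.12 ± 0.09 without control replicate 3 (adjusted p = 0.389 by limma). Fmo4 was the one enzyme of the 9 whose male groups still overlapped after control replicate 3 was left out.

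Among the sulfotransferases, Sult1d1 and Sult1a1 were higher in each Kl/Kl male than in any control male, whereas Sult1c2 ran lower. Sult1d1 sulfates dopamine and other catecholamines in the mouse, and the human counterpart is a pseudogene. Its levels were 128, 72.8, 106, 99.5 and 66.9 TPM in Kl/Kl males, against 51.6, 49.3 and 26.6 TPM in control males. The lowest Kl/Kl library was above the highest control. The means were 94.6 ± 25.1 TPM in Kl/Kl males (SD, n = 5) and 42.5 ± 13.8 TPM in control males (SD, n = 3), 2.22-fold, and the log2 change was 1.15 ± 0.29 (SE, adjusted p = 0.0431 by limma). The call stood close to the threshold: without control replicate 3 the change was 0.85 ± 0.25 (adjusted p = 0.0666 by limma), and the call was kept in 1 of the 8 fits that left out 1 male library, with an adjusted p of up to 0.0969. It passed in 11 of 22 alternatives in all (adjusted p from 0.00683 to 0.450 by limma).

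Sult1d1 lies on chromosome 5 (87702504 to 87716887, minus strand, mm39), 63.2 Mb from Kl on the same chromosome. Its promoter is shown as that of the most strongly raised enzyme that passed. The 250 bases before its start (RefSeq GRCm38.p6, chr5:87569007-87569256, minus strand, 5′ to 3′) hold an HNF1 motif 79 bases and a reverse-strand AHR core 47 bases before the start, in capitals and not overlapping:
Sult1d1: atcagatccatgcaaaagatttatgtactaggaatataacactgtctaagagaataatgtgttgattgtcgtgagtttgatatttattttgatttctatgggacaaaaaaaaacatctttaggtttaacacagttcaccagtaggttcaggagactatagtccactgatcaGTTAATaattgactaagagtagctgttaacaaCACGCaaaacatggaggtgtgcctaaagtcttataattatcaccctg
Sult1a1 holds the same HNF1 letters at 232 bases and a reverse-strand CCAAT box at 133 bases before its start. Sult1c2 holds a reverse-strand CCAAT box at 58 bases, and Fmo4 a CCAAT box at 239 bases.

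Sult1a1, a phenol sulfotransferase, had 18.1, 7.91, 7.67, 11.1 and 5.76 TPM in Kl/Kl males, against 4.81, 3.26 and 3.52 TPM in control males. The groups did not overlap, but the change of 1.11 ± 0.30 (SE) missed the threshold (adjusted p = 0.0537 by limma), as did that of 1.06 ± 0.37 without control replicate 3 (adjusted p = 0.0933 by limma). Over the alternatives its adjusted p by limma ran from 0.00621 to 0.151 and passed in 8 of 22. The gene (chromosome 7, 126272037 to 126275605, minus strand, mm39) overlaps 62 bases of Sgf29 on the other strand, and reads of the overlap may count for either. Sult1c2 (chromosome 17, 54136665 to 54153368, minus strand, mm39), a sulfotransferase of phenolic compounds, had 2.41, 5.53, 5.19, 2.29 and 5.81 TPM in Kl/Kl males, against 9.31, 6.56 and 4.62 TPM in control males. The change of -0.61 ± 0.30 (SE) did not pass (adjusted p = 0.222 by limma), nor did that without control replicate 3, -0.82 ± 0.34 (adjusted p = 0.139 by limma), where the groups no longer overlapped.

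The 5 Kl/Kl males also differed among themselves. Replicates 1 and 4 had the highest Sult1a1 (18.1 and 11.1 TPM) and the lowest Sult1c2 (2.41 and 2.29 TPM), and they had the lowest summed proximal tubule markers of their group (565 and 511 TPM, against 745 to 989 TPM in replicates 2, 3 and 5). They were also the Kl/Kl males least like the other libraries, with median correlations of 0.891 and 0.889. Whether these features are connected was not tested.

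The male changes of the epoxide hydrolases also had opposite signs, and that of Ephx1 passed. Ephx1 encodes the microsomal enzyme, which turns epoxides of drugs and aromatic compounds into diols. It had 1.69, 2.37, 1.75, 1.79 and 1.42 TPM in Kl/Kl males, against 0.904, 0.866 and 0.795 TPM in control males. Every Kl/Kl male was above every control, and the spread of the controls was small. The means were 1.80 TPM in Kl/Kl males and 0.855 TPM in control males, 2.11-fold, with a log2 change of 0.59 ± 0.13 (SE, adjusted p = 0.0299 by limma). Ephx1 was called also without control replicate 3 (0.56 ± 0.12, adjusted p = 0.0289 by limma), but in 2 of the 8 fits that left out 1 male library. The highest Kl/Kl library, replicate 2, carried adrenal cortex markers at a summed 71.1 TPM, against 0.970 to 10.6 TPM in the other Kl/Kl males. Without replicate 2 the Ephx1 change was 0.52 (adjusted p = 0.0657 by limma). The call was likewise lost without Kl/Kl replicate 1, 3 or 4 or control replicate 1 or 2. The part of the adrenal markers in the Ephx1 result was not tested. Over all 21 alternatives Ephx1 passed in 14, with an adjusted p from 0.00138 to 0.0902 by limma.

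Ephx1 lies on chromosome 1 (180803775 to 180848470, minus strand, mm39) and shares 81 bases with the pseudogene Gm36961 on the same strand, so the split of reads there is uncertain. Its promoter is shown beside that of Sult1d1 as the other raised enzyme. The 250 bases before its start (RefSeq GRCm38.p6, chr1:181017570-181017819, minus strand, 5′ to 3′) hold a TATA box 214 bases and a CCAAT box 108 bases before the start, in capitals and not overlapping:
Ephx1: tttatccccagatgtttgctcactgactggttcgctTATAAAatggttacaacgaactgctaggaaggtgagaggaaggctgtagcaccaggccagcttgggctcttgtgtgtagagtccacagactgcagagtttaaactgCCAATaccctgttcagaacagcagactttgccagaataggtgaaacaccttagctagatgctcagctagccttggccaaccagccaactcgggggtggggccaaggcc
Neither the androgen receptor, NRF2 nor STAT5 element was matched in any of the 7 promoters.

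Ephx2 encodes the soluble enzyme, which hydrolyses the epoxyeicosatrienoic acids made by cytochromes P450 and so ends their action on vessels and tubules. It lies on chromosome 14 (66321823 to 66361950, minus strand, mm39). Its levels were 2.10, 3.63, 2.64, 6.00 and 2.98 TPM in Kl/Kl males, against 7.65, 7.79 and 4.93 TPM in control males. In 4 of 5 Kl/Kl males it was below every control, and replicate 4 was inside the control range. The change was -0.84 ± 0.26 (SE, adjusted p = 0.0745 by limma) with every library and -1.02 ± 0.28 (adjusted p = 0.0530 by limma) without control replicate 3. It missed the threshold in both fits, passed without Kl/Kl replicate 4 (-1.01, adjusted p = 0.0329 by limma), and passed in 5 of 21 alternatives in all (adjusted p from 0.000894 to 0.164 by limma).

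**Figure D2:**
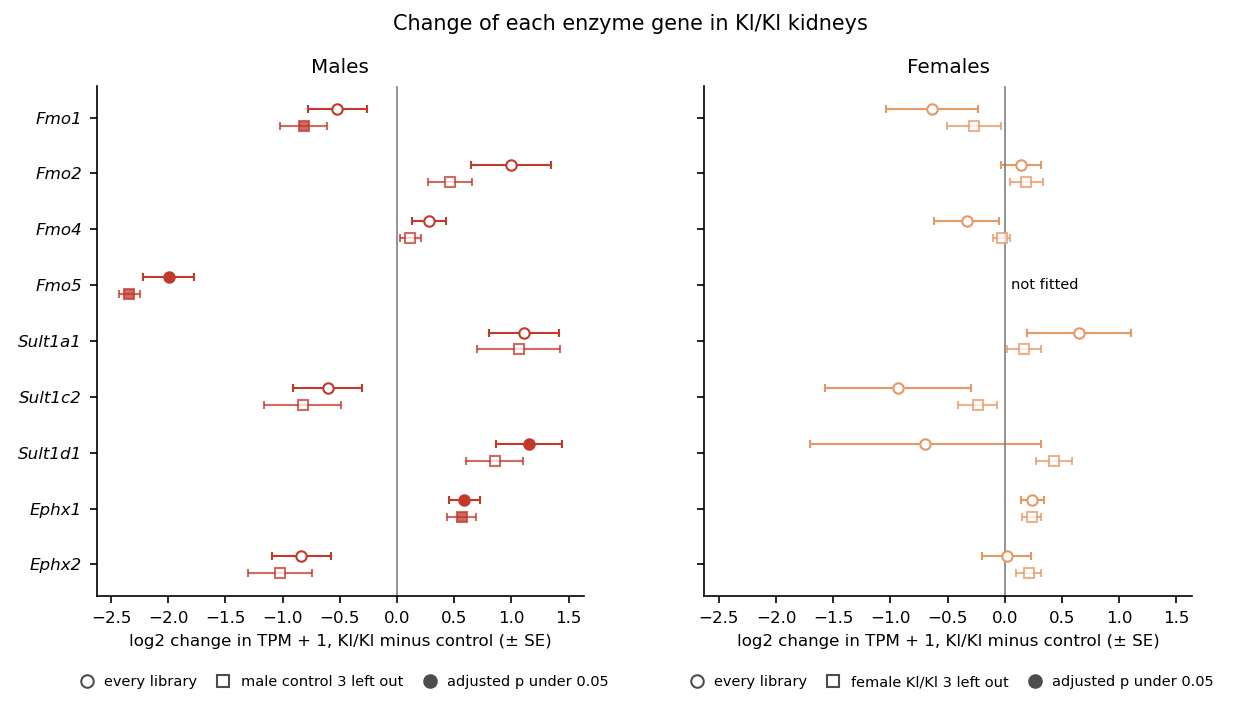
Log2 change in TPM + 1 (Kl/Kl minus control, ± SE) of the 9 enzyme genes in males and in females, with every library (circles) and with male control replicate 3 or female Kl/Kl replicate 3 left out (squares). Filled symbols passed an adjusted p of 0.05; in males Fmo5 stands apart at -2.00 and -2.34, and no female value passed.

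In females, none of the 8 enzymes that could be fitted passed the threshold, with or without female Kl/Kl replicate 3 (adjusted p from 0.745 to 0.968 with it and from 0.201 to 0.874 without it, by limma). Few genes of any kind passed in females: 3 of 8596 tested, 0.0349%, each lower, with every library, and 9 of 8748, 0.103%, without replicate 3 (0.0572% higher and 0.0457% lower), while 414 and 1614 genes had an unadjusted p under 0.05. For that reason the 0 of 8 does not show that these genes were alike in Kl/Kl and control females. The voom fit likewise called 0 of the 8 and 0 genes in all.

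Ephx1 was higher in each Kl/Kl female than in each control female, at 1.56, 2.13, 1.80 and 1.62 TPM against 1.22, 1.36, 1.30 and 1.51 TPM. Groups did not overlap for 8.33% of all female genes (4.79% higher and 3.54% lower), or 16.1% without replicate 3 (12.2% higher and 3.9% lower). The Ephx1 change was 0.24 ± 0.10 (SE, unadjusted p = 0.0489 and adjusted p = 0.745 by limma). Fmo5, under the mean of 1 TPM needed for the fit, had 0.393, 0.376, 0.265 and 0.432 TPM in Kl/Kl females, against 0.468, 0.589, 0.576 and 0.574 TPM in control females. Each Kl/Kl female was below each control, at 66.5% of the control mean (exact permutation p = 0.0286, two-sided, the smallest this design allows). Without replicate 3 the order held at 72.6% of the control mean, with an exact permutation p of 0.0571, again the smallest possible.

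Several of the other female changes moved with replicate 3, the library without kidney markers. Sult1d1 had 53.6, 71.6, 1.97 and 78.0 TPM in Kl/Kl females, against 45.3, 46.4, 45.4 and 62.0 TPM in control females. The value of 1.97 TPM is that of replicate 3, and the log2 change was -0.70 ± 1.01 with it and 0.43 ± 0.16 without it (SE, adjusted p = 0.754 and 0.212 by limma). Sult1a1 had 6.06, 7.56, 31.2 and 8.99 TPM in Kl/Kl females, against 5.32, 7.81, 6.14 and 7.09 TPM in control females. Replicate 3 was again the one far value, in the other direction, and the change was 0.65 ± 0.46 with it and 0.17 ± 0.15 without it. Sult1c2 had 8.42, 5.23, 0.0339 and 5.10 TPM in Kl/Kl females, against 8.97, 7.19, 7.42 and 6.13 TPM in control females, and its change was -0.93 ± 0.64 with replicate 3 and -0.24 ± 0.17 without it.

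Fmo1 had 10.8, 15.4, 5.07 and 22.8 TPM in Kl/Kl females, against 17.6, 17.2, 17.1 and 25.8 TPM in control females. The groups overlapped, with a change of -0.64 ± 0.40 with replicate 3 and -0.27 ± 0.24 without it (SE). Fmo2 had 23.0, 27.0, 23.4 and 31.1 TPM in Kl/Kl females, against 19.5, 22.2, 23.7 and 29.2 TPM in control females. The 23.4 TPM of replicate 3 lay inside the range of the other 7 female libraries, and the Fmo2 change was 0.14 ± 0.18 with it and 0.19 ± 0.15 without it (SE). Fmo4 had 1.82, 1.91, 0.233 and 1.86 TPM in Kl/Kl females, against 2.33, 1.84, 1.86 and 1.68 TPM in control females. Ephx2 had 3.74, 3.86, 1.71 and 3.26 TPM in Kl/Kl females, against 2.64, 3.40, 2.49 and 3.55 TPM in control females. Both overlapped between groups, and with and without replicate 3 the change was -0.33 ± 0.29 and -0.03 ± 0.08 for Fmo4, and 0.02 ± 0.21 and 0.21 ± 0.11 for Ephx2 (SE).

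The difference between the sexes was tested in a model of the 4 groups as the male change minus the female change. For Fmo5 it was -1.81 ± 0.25 (SE, adjusted p = 0.00277 by limma), among 18 of 8535 genes that passed, 0.211%. Without both libraries that stood apart it was -2.19 ± 0.09 (adjusted p = 7.25e-09 by limma), where 3.89% of genes passed, 3.43% as lower. Control females held 0.468 to 0.589 TPM of Fmo5, which leaves a female fall little room on the log2(TPM + 1) scale. A large male fall therefore gives a large difference whatever the size of a female fall. Fmo5 also met the mean filter of this model only through the control males. The median of the difference between the sexes over all genes was 0.33 with every library and -0.06 without both. For Ephx2 the difference was -0.85 ± 0.36 with every library (adjusted p = 0.542 by limma) and -1.23 ± 0.31 without both (adjusted p = 0.0463 by limma). Ephx2 passed in 1 other of 28 alternatives, with array weights and every library (-1.23, adjusted p = 0.000718 by limma), and its highest adjusted p was 0.676. The other 7 enzymes did not pass in either fit. Without male control replicate 1 or 2, Fmo5 fell under the mean filter of this model and has no value there.

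Controls of the sexes are set side by side here without a test, since the tables were made separately and the control genotypes differ. Values are as deposited, and the total of the male table is 1.08 times that of the female table. Ranges overlapped between male and female controls for 5 enzymes, Fmo1 (9.36 to 21.6 and 17.1 to 25.8 TPM), Fmo2 (6.58 to 22.0 and 19.5 to 29.2 TPM), Fmo4 (0.943 to 1.80 and 1.68 to 2.33 TPM), Sult1c2 (4.62 to 9.31 and 6.13 to 8.97 TPM) and Sult1d1 (26.6 to 51.6 and 45.3 to 62.0 TPM). The Fmo4 ranges met only from 1.68 to 1.80 TPM, no wider than the difference in totals, so that overlap may rest on the totals alone. For the other 4 enzymes the ranges lay apart. Fmo5 was 2.51 to 6.65 TPM in control males and 0.468 to 0.589 TPM in control females. Kl/Kl males, at 0.303 to 0.525 TPM, were thus near the female controls and not near their own. Ephx2 was 4.93 to 7.79 TPM in control males and 2.49 to 3.55 TPM in control females, and 4 of the 5 Kl/Kl males, at 2.10 to 3.63 TPM, were near the female range. Ephx1 was 0.795 to 0.904 TPM in control males and 1.22 to 1.51 TPM in control females, with Kl/Kl males at 1.42 to 2.37 TPM. Sult1a1 was 3.26 to 4.81 TPM in control males and 5.32 to 7.81 TPM in control females, with Kl/Kl males at 5.76 to 18.1 TPM.

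Ratios of 2 enzymes within a library do not depend on the scaling of that library. They were chosen after the values had been seen and are descriptions. The ratio of Fmo2 to Fmo1 was 2.38 to 3.94 in Kl/Kl males and 0.703 to 1.42 in control males, and 1.36 to 4.61 in Kl/Kl females (1.36 to 2.12 without replicate 3) against 1.11 to 1.38 in control females. Each of the 4 ratios computed sets an enzyme with a positive male change over one with a negative male change. That choice favours separate male groups, and the male groups did not overlap in any of the 4. Sult1d1 to Sult1c2 was 11.5 to 53.1 in Kl/Kl males and 5.54 to 7.53 in control males, and 6.36 to 58.3 in Kl/Kl females (6.36 to 15.3 without replicate 3) against 5.05 to 10.1 in control females, where the groups overlapped. Ephx1 to Ephx2 was 0.298 to 0.804 in Kl/Kl males and 0.111 to 0.161 in control males, and 0.417 to 1.05 in Kl/Kl females (0.417 to 0.553 without replicate 3) against 0.401 to 0.519 in control females. Fmo2 to Fmo5 was 54.6 to 142 in Kl/Kl males and 2.62 to 3.89 in control males, and 58.4 to 88.3 in Kl/Kl females (58.4 to 71.9 without replicate 3) against 37.7 to 50.9 in control females, so on this ratio the Kl/Kl groups of the sexes overlap while their controls lie far apart.

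**Figure D3:**
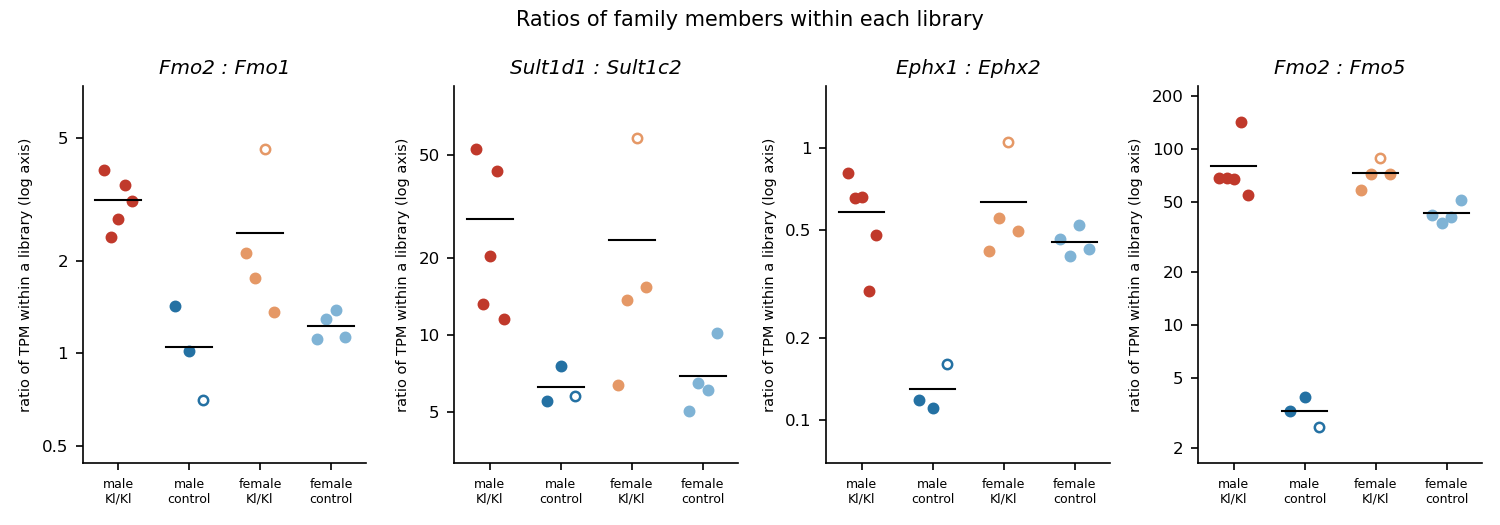
Ratio of the TPM of 2 enzyme genes within each library (log axis) by group, with group means as black lines and open points for the third replicate of female Kl/Kl and of male control. Kl/Kl males lie above control males in each panel, by most for Fmo2 to Fmo5 (54.6 to 142 against 2.62 to 3.89). Each pair was chosen with a numerator that ran higher and a denominator that ran lower in Kl/Kl males.

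Cell type markers moved in the male comparison as well. The 15 proximal tubule markers summed to 511 to 989 TPM in Kl/Kl males and 756 to 1378 TPM in control males. Without control replicate 3 the control sums ran from 1259 to 1378 TPM, above every Kl/Kl male. Of these 15, 1 rose (Slc5a12) and 4 fell (Slc7a13, Keg1, Acsm2 and Slc22a6), named because they passed. Over all 15 markers the log2 change was negative for 10 and positive for 5. Beside them, Fmo5, Fmo1, Sult1c2 and Ephx2 ran lower, and of these enzymes only Fmo5 passed with every library. Fmo2, Fmo4, Sult1a1, Sult1d1 and Ephx1 ran higher. Markers of tubular injury summed to 229 to 322 TPM in Kl/Kl males and 56.4 to 115 TPM in control males, with 3 of 5 tested higher (Lcn2, Krt18 and Spp1). Collecting duct markers summed to 140 to 227 TPM in Kl/Kl males and 55.9 to 96.8 TPM in control males, with 2 of 5 higher (Aqp2 and Scnn1g). Macrophage markers summed to 15.5 to 25.1 TPM in Kl/Kl males and 6.75 to 11.5 TPM in control males, with 3 of 5 tested higher (Lyz2, Cd14 and Cd68), and of 2 liver markers tested Ttr fell. With every library no tested gene passed in the other 9 marker lists, and without control replicate 3 the podocyte list had 2 of 4 higher and the macrophage list 2 of 5, with Cd68 no longer called (adjusted p = 0.0674 by limma). The part of these markers in the enzyme results was not tested.

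Other genes of the 3 families were scarcely present. Of 23 listed, 13 were in the tables, and none reached a mean of 1 TPM in males. Sult1b1, which sulfates thyroid hormones, had 0.188 to 0.268 TPM in Kl/Kl males and 0.239 to 0.334 TPM in control males.

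Genes that supply sulfate and its activated donor PAPS did not pass in males with every library (0 of 12 tested, median log2 change -0.08 against 0.19 over all genes). Without control replicate 3, 3 of 12 fell: Ethe1, a mitochondrial persulfide dioxygenase (-0.66, adjusted p = 0.00598 by limma), Papss1, which makes PAPS (-0.49, adjusted p = 0.0193 by limma), and Suox, which oxidises sulfite to sulfate (-0.78, adjusted p = 0.0448 by limma). In that fit 7.36% of all genes passed as lower, and of the 12 changes 9 were negative and 3 positive. Papss2, which also makes PAPS, ran higher in Kl/Kl males without passing. Its change was 0.74 with every library (adjusted p = 0.0853 by limma) and 0.50 without control replicate 3 (adjusted p = 0.158 by limma).

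Among 7 tested genes that form epoxides or deliver electrons to their makers, 1 passed in males. Cyp2j13, a cytochrome P450 of the Cyp2j family, was 0.00176 to 0.246 TPM in Kl/Kl males and 4.59 to 12.2 TPM in control males (-3.18 ± 0.25, adjusted p = 3.10e-05 by limma). The male change minus the female change was -3.26 (adjusted p = 2.74e-05 by limma), since in females the gene stood at up to 0.240 TPM in Kl/Kl and up to 0.0503 TPM in control kidneys. Without control replicate 3, Por, the reductase of microsomal cytochromes P450 (-0.63, adjusted p = 0.0128), Cyp2j11 (-0.90, adjusted p = 0.0260) and Cyp2j5, an epoxygenase of arachidonic acid in mouse kidney (-1.37, adjusted p = 0.0285, all by limma), also fell. Ephx2, which removes the products of such epoxygenases, ran lower beside them without passing. The list of these 7 genes was chosen with earlier results of these data known. Of the 7 genes, 4 passed as lower in the fit without control replicate 3, against 7.36% of all genes. Cyp1b1 (0.40) and Cyp2j6 (0.10) had positive changes in that fit, and neither passed.

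Of 8 tested transcription factors of xenobiotic enzymes 0 passed in males. Cebpb averaged 48.4 TPM in Kl/Kl males (15.0 to 87.4 TPM) and 22.7 TPM in control males (17.6 to 30.5 TPM), so the groups overlapped. The Cebpb change was 0.87 ± 0.47 (SE, adjusted p = 0.259 by limma), and 0.71 ± 0.59 without control replicate 3 (adjusted p = 0.434 by limma). Hnf4a, a factor of proximal tubule and liver, averaged 15.1 TPM in Kl/Kl males and 11.9 TPM in control males. Without control replicate 3 the Hnf4a control mean was 15.1 TPM, and its log2 change turned from 0.41 to -0.03. Among 8 targets of NRF2, the oxidative stress factor whose targets in rodents include Ephx1, 1 rose and 1 fell. Gsta4, which conjugates lipid aldehydes, was 1.56 to 5.54 TPM in Kl/Kl males and 0.387 to 0.542 TPM in control males (1.66, adjusted p = 0.00520 by limma). Gclm, the modifier subunit of glutathione synthesis, was 6.16 to 6.54 TPM in Kl/Kl males and 8.23 to 19.7 TPM in control males (-0.98, adjusted p = 0.0392 by limma). The NRF2 target list therefore did not move one way, with a median of 0.18 against 0.19 over all genes. In females 0 genes of these lists passed with or without replicate 3.

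**Figure D4:**
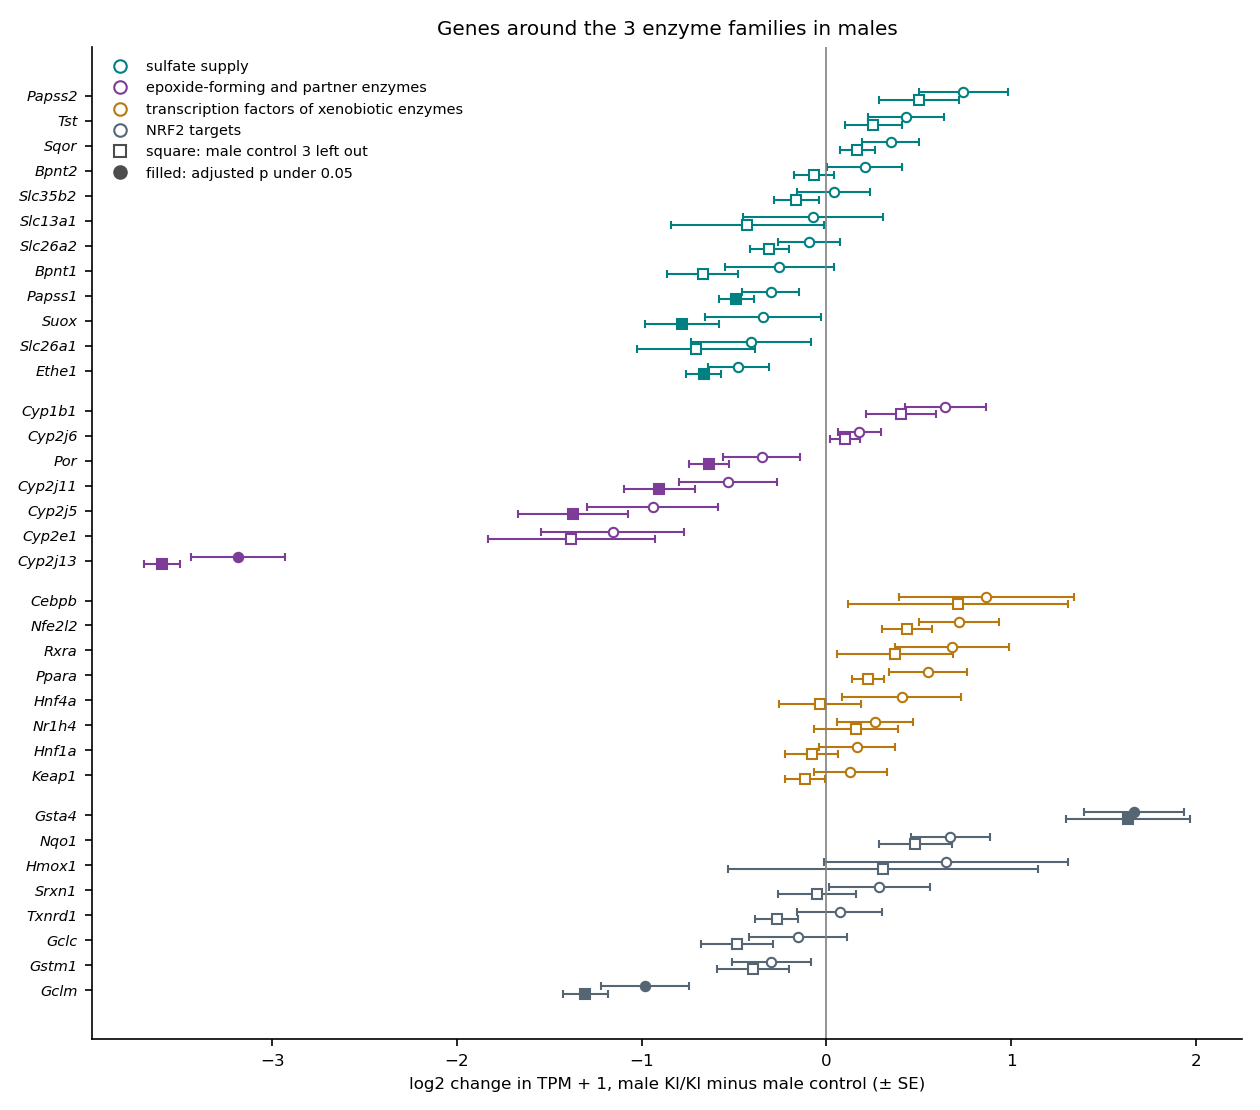
Log2 change in TPM + 1 (male Kl/Kl minus male control, ± SE) of the tested genes of 4 lists, with every library (circles) and without male control replicate 3 (squares), filled where the adjusted p was under 0.05. Cyp2j13 lies lowest at -3.18, Gsta4 highest at 1.66, and the squares lie left of the circles for most genes.

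The genes most like each enzyme were ranked by Pearson r of log2(TPM + 1) over the 14 libraries without the 2 that stood apart, centred within each table, among 6582 genes. Values share the contrast between Kl/Kl and control, and r is a description. Fmo5 was most like Acsm3, an acyl-CoA synthetase of medium-chain fatty acids (r = 0.99), and Cd36, a fatty acid transporter (r = 0.98). Acsm3 averaged 0.275 TPM in Kl/Kl males and 35.8 TPM in control males, and 0.401 TPM in Kl/Kl females and 0.204 TPM in control females. Cd36 averaged 0.601 TPM in Kl/Kl males and 7.25 TPM in control males, and 0.489 TPM in Kl/Kl females and 0.528 TPM in control females. Like Fmo5, both were thus high in control males and low in the 3 other groups. Fmo1 was most like Slc13a3, a dicarboxylate transporter (r = 0.94), and Afmid (r = 0.92). Sult1c2 was most like Snap47 (r = 0.96) and Slc9a3, the sodium-proton exchanger of the proximal tubule (r = 0.96), and Sult1a1 was most like Plat, tissue plasminogen activator (r = 0.96). Sult1d1 was most like Snhg8 and Ncoa4 (r = 0.93 each), Ephx1 like Zfp281 (r = 0.95) and Zfp68 (r = 0.93), Ephx2 like Def8 (r = 0.92) and Vil1 (r = 0.91), Fmo2 like Mef2d and Slc25a20 (r = 0.91 each), and Fmo4 like Ppp1r26 (r = 0.85) and Fyco1 (r = 0.81).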

How the data were processed

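Poly(A) RNA from flash-frozen kidneys was made into stranded libraries, per the labels' protocols. The authors deposited 1 TPM table per sex, with Ensembl gene identifiers and coordinates, per the file headers. The submitters' processing notes name Partek and mm39. For the aligner, counter, strand setting and filters, the sources used here give nothing. When each TPM value was multiplied by the gene's genomic span, and the smallest value in a library set to 0.0001 reads, 73.3 to 75.4% of low values lay within 0.05 of a whole number, which gave the estimated reads and depths. Kl/Kl was compared with control within a table by limma 3.58.1 (R 4.3.3) with trended empirical Bayes on log2(TPM + 1), on genes whose mean reached 1 TPM, with Benjamini-Hochberg adjustment over all genes tested and a threshold of 0.05. The difference between the sexes was a contrast in a 4-group model. Fmo5 in females and Kl were tested by two-sided exact permutation. Genes named beyond the 9 were taken from fixed lists: up to 4 that passed by smallest p, otherwise 2 with the highest mean, and the 2 most correlated genes per enzyme; 2 genes that this rule names are not reported here. Members and lists were chosen with earlier results of these data known. Alternatives covered the pseudocount, filter, scaling, mitochondrial genes, library weights, covariates, a replicate block, voom on estimated reads, and leaving out each library; 3 further ones were added after seeing the data. The fits were run on simulated data with the same spread for every gene and no library standing apart. That run therefore does not cover libraries like those that stood apart here. Counting error and floors are not given because depths are estimates.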

Additional observations from a re-analysis of the deposited data

Results flagged for a closer look

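Of 27 sets of 4 or 5 libraries (9 enzymes in 3 groups), 6 held 1 library far from the rest, where chance gives about 1 in 20. Female Kl/Kl replicate 3, the library without kidney markers, was lowest for Fmo4 at 0.233 TPM and highest for Sult1a1 at 31.2 TPM. Female control replicate 4 was highest for Fmo1 at 25.8 TPM and for Sult1d1 at 62.0 TPM. Male Kl/Kl replicate 4 was highest for Fmo2 at 42.9 TPM, and female control replicate 1 was lowest for Fmo5 at 0.468 TPM.

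The change of Fmo5 in males minus that in females was -1.81 on the log2 scale with every library (adjusted p = 0.00277 by limma). Without male control replicate 3 and female Kl/Kl replicate 3 it was -2.19 (adjusted p = 7.25e-09 by limma). Control females, at 0.468 to 0.589 TPM, left a female fall little room on that scale. Fmo5 was lower in 5 of 5 Kl/Kl males and 4 of 4 Kl/Kl females than in any control of the same sex. These females include replicate 3, the library without kidney markers, and the order held without it. Over all genes tested, groups did not overlap with Kl/Kl lower for 4.4% in males and 3.54% in females. The difference between the sexes for Ephx2 passed without male control replicate 3 and female Kl/Kl replicate 3, at -1.23 (adjusted p = 0.0463 by limma). It did not pass with every library (-0.85, adjusted p = 0.542 by limma). Control genotype differs between the sexes, so the difference by sex and that by control genotype cannot be told apart.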

How the results depend on the processing

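Of 630 values of a single enzyme under an alternative, 567 kept their direction and their side of the threshold, 19 lost a call, 22 gained one and 22 reversed, 0 of the reversals in males, 11 in females and 11 in the difference between the sexes. Counts of calls varied widely. Male calls over all genes (500) were 322 with a mean of at least 5 TPM, 1157 with median-of-ratios scaling, 1158 with that scaling and without male control replicate 3, 1043 without mitochondrial genes, 2829 with array weights, 1249 with the prefix of the library name as a covariate, 1421 with voom, and 185 to 909 leaving out 1 library. Male enzymes called (3) were 5, 5, 7, 5 and 6 with median-of-ratios scaling, without mitochondrial genes, with array weights, with the prefix and with voom, and 1 to 4 leaving out 1 library. Female calls over all genes (3) were 8 with no filter, 14 with no filter and without female Kl/Kl replicate 3, 327 with array weights, 7 in the 4-group model, 0 with voom, and 2 to 9 leaving out 1 library. Calls for the difference between the sexes (18) were 10 with a pseudocount of 0.1, 117 with no filter, 3 with a mean of at least 5 TPM, 31 without mitochondrial genes, 1036 with array weights, 31 with age as a covariate, 8 with voom, 9 to 75 leaving out 1 library and 338 leaving out both male control replicate 3 and female Kl/Kl replicate 3. Enzymes called for that difference (1) were 0 at a mean of at least 5 TPM, which leaves Fmo5 out, 2 with array weights, 2 leaving out both, and 0 to 1 leaving out 1 library. Without a replicate number from the labels that pairs libraries (correlations of deviations between same-numbered libraries from -0.18 to 0.29, and 2 of 7 pairs in which a library was most like its own number), a replicate block gave 227 male, 0 female and 9 difference calls, with 1, 0 and 0 enzymes. The Fmo5 difference between the sexes kept its size there (-1.81) but was not called (adjusted p = 0.142 by limma), the 1 of its 26 alternatives with a value in which it was not. Reversed values in females were Fmo4 with array weights (0.0060), Sult1d1 with array weights (0.42) and without female Kl/Kl replicate 3 (0.43, where leaving out 1 library gave -1.15 to 0.43, or 0.36 with median-of-ratios scaling and 0.43 with no filter), and Ephx2 without mitochondrial genes (-0.015) and leaving out 1 library (-0.073 to 0.21, namely -0.06, -0.073 and -0.0097 without Kl/Kl 1, 2 or 4 and -0.03 and -0.05 without control 1 or 3). In the difference between the sexes, Fmo1 reversed to -0.084 with median-of-ratios scaling, -0.60 with array weights, -0.030 with age, -0.18 with voom and -0.54 leaving out both libraries (-0.25 to 0.41 leaving out 1), and Sult1c2 to -0.31 with array weights and -0.59 leaving out both (-0.37 to 0.69 leaving out 1). Leaving out 1 library put the exact permutation p of Fmo5 in females (difference -0.21 to -0.15) and of Kl in females (-3.93 to -3.55) at 0.0571, and of Kl in males (-3.67 to -2.85) at up to 0.0952, each the smallest possible. The scaling or filter changes that left out a library at the same time were chosen after seeing the data. Apart from these constructions, the cause of the shifts was not tested. Fmo5 in females had an estimated 202 to 308 reads in Kl/Kl and 341 to 449 in control libraries.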
